A study of Mus musculus with 14 samples.

Results

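The genes described here are 29 sterol and fatty acid synthesis genes, picked by symbol from 36335 genes in the deposited count tables. They comprise 7 genes of the mevalonate steps (Acat2, Hmgcs1, Mvk, Pmvk, Mvd, Idi1, Fdps) and 11 of the squalene and sterol ring steps (Fdft1, Sqle, Lss, Cyp51, Tm7sf2, Msmo1, Nsdhl, Hsd17b7, Ebp, Sc5d, Dhcr7). A further 5 are regulators or sterol carriers (Srebf1, Srebf2, Scap, Insig1, Stard4), and 6 act in fatty acid synthesis (Acly, Acaca, Fasn, Elovl6, Scd1, Scd2). All 29 had enough counts to enter the tests of total RNA, on 14641 genes, and of labelled RNA, on 12678 genes.

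Sterols are made from acetyl-CoA through mevalonate, isoprenoid units and squalene, which is folded into the sterol rings and trimmed to cholesterol. Many of these genes are targets of the SREBP transcription factors, which the proteins Scap and Insig1 hold in the endoplasmic reticulum while sterols are plentiful. In many cell types the mTOR kinase promotes SREBP activity, and the cells studied here were held under an mTOR inhibitor.

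The samples were mouse E14 embryonic stem cells in a paused state, 8 libraries of Mettl3-KO cells and 6 of WT cells. Mettl3 encodes the methyltransferase that puts the m6A mark on mRNA. Both genotypes had been kept on gelatin with serum and LIF and 200 nM INK128, the mTOR inhibitor, for 2 weeks. Both received 100 µM S4U, a thiolated uridine built into new RNA, for 12 h, and were collected 0, 1, 3 and 8 h after its removal. A medium exchange setting of 3 h applied alike to all libraries. Mettl3-KO had 2 libraries at each time, and WT had 1, 2, 1 and 2 libraries at 0, 1, 3 and 8 h. The labels do not say how the Mettl3-KO line was made, how many clones it holds or whether replicates were separate cultures. P-values therefore measure only the spread between these libraries, which may be technical. In bulk RNA, fewer cells of a kind and less RNA per cell cannot be told apart.

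Of the 14 libraries, 12 held 6108102 to 26654217 total counts, and these are called deep. The library labelled Mettl3-KO 3 h replicate 2 held 602297 counts, 677 of them in the 29 genes. The library labelled WT 1 h replicate 2 held 49154 counts, 70 of them in the 29 genes. Mettl3 stood at 1.21 to 2.41 CPM (counts per 1000000, TMM-scaled) in deep Mettl3-KO libraries and at 23.0 to 74.9 CPM in deep WT libraries, and at 1 count in WT 1 h replicate 2. That library goes against its label. Its Y-linked Ddx3y stood at 162 CPM (8 counts), within the 132 to 214 CPM of deep Mettl3-KO libraries and above the 1.06 to 3.83 CPM of deep WT libraries. Its Klf5, a pluripotency factor, stood at 1790 CPM, between the 197 to 478 CPM of deep Mettl3-KO and the 6910 to 13100 CPM of deep WT libraries. Ddx3y RNA thus differed between the lines, and whether through Mettl3 or another difference between them was not tested. The genotype and other differences between the lines cannot be told apart. Members were tested in all 14 libraries and in the 12 deep ones. Values from the deep libraries alone are named as such, and labelled RNA is given for all 14 where nothing else is said. Label was low in both shallow libraries. Conversion counts, the measure of labelled RNA, were 8.43% of total counts in WT 1 h replicate 2, against 30.8% in WT 1 h replicate 1. They were 6.9% in Mettl3-KO 3 h replicate 2, against 18.5% in Mettl3-KO 3 h replicate 1. Mettl3-KO 3 h replicate 2 also held Ddx3y at 551 CPM and Klf5 at 956 CPM, above the deep Mettl3-KO ranges. Labelled fits of all 14 libraries include both.

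Summed markers of embryonic stem cells overlapped, at 3146 to 4427 CPM in deep Mettl3-KO libraries and 3863 to 4970 CPM in deep WT libraries, and 1 of 8 was called lower in Mettl3-KO (Esrrb). Summed neural markers stood at 453 to 737 CPM in deep Mettl3-KO libraries and 74.9 to 97.5 CPM in deep WT libraries, with 2 of 5 called higher and 1 lower. Summed endoderm markers stood at 8.39 to 36.4 CPM in Mettl3-KO libraries and 105 to 143 CPM in deep WT libraries, with 4 of 7 called lower and 1 higher. Summed fibroblast markers stood at 338 CPM in Mettl3-KO 3 h replicate 2 and at no more than 19.9 CPM in any other library, with Postn at 0 throughout. The part of these marker differences in the results below was not tested.

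The promoter stretches below are from 4 of the 7 genes whose total RNA rose over the chase in deep Mettl3-KO libraries. They were chosen for holding a motif, mostly the one that most promoters of the group share. Of the 7 genes 5 had a promoter entry, and Acaca among these held no motif. Fdft1 and Scd2 had no entry. Sequences are 30 bases each from RefSeq on GRCm38.p6, 5′ to 3′ on the gene's strand, with positions counted from the annotated start (-1 is the base before it). Capitals mark a motif, either CCAAT, the form bound by the factor NF-Y (ATTGG on the other strand), or TCACNCCAC, a form of the sterol regulatory element.
Hmgcs1, chr13:119690204-119690233, plus strand, from -147: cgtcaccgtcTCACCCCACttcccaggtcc
Hmgcs1, chr13:119690294-119690323, plus strand, from -57: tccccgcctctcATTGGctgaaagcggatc
Msmo1, chr8:64733657-64733686, minus strand, from -108: ccttagcacggaCCAATcactgcacggcga
Msmo1, chr8:64733616-64733645, minus strand, from -67: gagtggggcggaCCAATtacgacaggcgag
Hsd17b7, chr1:169969261-169969290, minus strand, from -85: tgccgagtcgcgATTGGcgggcctaacgcg
Fasn, chr11:120824592-120824621, minus strand, from -74: cggcctcggtgtCCAATTGGtttcgatgtg

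The Fasn stretch holds CCAAT on both strands, overlapping, and lies at an alternative start within the annotated gene. RefSeq promoters, from 250 bases before to 50 after the start, were matched for 23 of the 29 genes. CCAAT on either strand was in 19 of the 23 (82.6%), against 41.1% of 27025 genes with a promoter of the same length. Those genes were not limited to the ones tested here, and a gene counted if any of its promoters matched. Acat2, Acaca, Scap and Elovl6 had no CCAAT in this window. TCACNCCAC was found in Hmgcs1 alone among the 23 (4.35%), against 1.44% of all genes. The E-box form TCACGTGA was in 0 of the 23, against 1.12% of all genes. A match is a description of letters, not evidence of binding, and the windows without a match say nothing about either factor.

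Total RNA of most members was not called different between Mettl3-KO and WT cells, with a few enzymes apart in each direction. In all 14 libraries 2 of 29 genes were called higher in Mettl3-KO (edgeR quasi-likelihood test, Benjamini-Hochberg adjusted p under 0.05 over all genes), namely Sqle and Acaca. The background was 12.1% of all genes called higher and 9.99% called lower, and 0 members were called lower. In either direction, 4 of 29 members had an unadjusted edgeR p under 0.05, against 5036 of 14641 genes. DESeq2 called 3 members higher, where it called 16.8% of all genes, and 2 lower, where it called 16.1%. The median log2 difference of the 29 was 0.16, against 0.05 over all genes, and 19 lay above 0. A count of 1 member higher was found when WT 0 h replicate 1, WT 1 h replicate 1, WT 3 h replicate 1, either WT 8 h library or either Mettl3-KO 8 h library was left out, and of 4 without Mettl3-KO 3 h replicate 2. In the 12 deep libraries 5 members were called higher (Sqle, Acaca, Sc5d, Hsd17b7, Dhcr7), where 21.9% of all genes were, and 2 lower (Msmo1, Acat2), where 19.3% were. Neither share of members stood above its background. In the deep libraries 11 of 29 members had an unadjusted edgeR p under 0.05 in either direction, against 7221 of 14579 genes.

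The squalene and sterol ring enzymes held 4 of those 5 higher genes. Sqle (chromosome 15, 59315092 to 59331193 on GRCm38.p6, as are the positions below) encodes squalene epoxidase, which puts the first oxygen on squalene. It stood between 41.2 and 68.6 CPM with a median of 60.2 in the 7 deep Mettl3-KO libraries, against 27.4, 30.7, 21.1, 23.0 and 27.9 CPM in the deep WT libraries. Every deep Mettl3-KO library lay above every deep WT library. The log2 difference was 0.94 (SE 0.27, edgeR adjusted p = 0.0216) in all libraries and 1.12 (SE 0.17, edgeR adjusted p = 6.6e-05) in the deep ones. Sc5d (chromosome 9, 42251592 to 42264300), the desaturase late in the pathway, was the only other member without overlap. It stood between 30.6 and 42.2 CPM with a median of 35.1 in deep Mettl3-KO libraries, against 22.4, 24.7, 20.2, 15.4 and 22.2 CPM in deep WT libraries. Its log2 difference was 0.72 in deep libraries (SE 0.17, edgeR adjusted p = 0.00273) and 0.56 in all 14 (edgeR adjusted p = 0.123). Genes with Mettl3-KO above WT in all deep libraries were 13.1% of those tested, against 2 of 29 members, and genes with Mettl3-KO below WT were 10.2%, against 0 of 29.

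Dhcr7 and Hsd17b7 differed less evenly. Dhcr7 (chromosome 7, 143823167 to 143848410) encodes the reductase of the last step to cholesterol. It averaged 17.6 CPM ± 6.92 (SD, n = 7) in deep Mettl3-KO libraries and 8.63 CPM ± 4.29 (SD, n = 5) in deep WT libraries, with overlap. The log2 difference was 1.02 in the deep libraries (SE 0.37, edgeR adjusted p = 0.0405). Hsd17b7 (chromosome 1, 169949535 to 169969242), the ketoreductase of sterol demethylation, averaged 16.9 CPM ± 6.49 (SD, n = 7) in deep Mettl3-KO libraries and 10.7 CPM ± 1.59 (SD, n = 5) in deep WT libraries. Its log2 difference was 0.66 in the deep libraries (SE 0.23, edgeR adjusted p = 0.0273), and neither gene passed in all 14 libraries (edgeR adjusted p = 0.228 for Dhcr7 and 0.181 for Hsd17b7). When 1 deep library at a time was left out, Sqle, Sc5d and Acaca were called higher in every run. Hsd17b7 or Dhcr7 or both dropped out without WT 3 h replicate 1, WT 8 h replicate 1, WT 8 h replicate 2, Mettl3-KO 3 h replicate 1, either Mettl3-KO 0 h library, Mettl3-KO 1 h replicate 2 or either Mettl3-KO 8 h library, so that between 3 and 8 members were called.

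Msmo1 went the other way within the same steps. Msmo1 (chromosome 8, 64718123 to 64733578) encodes the methylsterol monooxygenase that begins removal of methyl groups at the ring's C4 position. It stood between 30.6 and 60.8 CPM with a median of 34.0 in deep Mettl3-KO libraries, against 70.6, 85.1, 59.2, 54.3 and 64.1 CPM in deep WT libraries. The ranges overlapped only through the 2 Mettl3-KO libraries at 8 h. In deep libraries Msmo1 fell by 0.70 on the log2 scale (SE 0.19, edgeR adjusted p = 0.00747), and over all 14 libraries the difference was -0.67 (SE 0.23, edgeR adjusted p = 0.0534). The steps thus held members in both directions, and the median log2 difference of the 11 genes was 0.46 in all libraries, with 9 above 0. Members that did not pass included Nsdhl, the C4 decarboxylating dehydrogenase, at 26.1 CPM ± 7.77 (SD, n = 7) in deep Mettl3-KO and 17.0 CPM ± 5.49 (SD, n = 5) in deep WT libraries (edgeR adjusted p = 0.0626). Ebp, the sterol isomerase and an abundant gene of these steps, averaged 58.5 CPM ± 7.57 (SD, n = 7) in deep Mettl3-KO and 65.9 CPM ± 7.14 (SD, n = 5) in deep WT libraries. Lss, which closes the rings, averaged 32.7 CPM ± 8.2 in deep Mettl3-KO and 27.9 CPM ± 5.98 in deep WT libraries. Cyp51, the lanosterol demethylase, averaged 45.1 CPM ± 13.3 in deep Mettl3-KO and 41.2 CPM ± 10.7 in deep WT libraries. Fdft1, squalene synthase, averaged 28.8 CPM ± 10.7 in deep Mettl3-KO and 19.4 CPM ± 4.10 in deep WT libraries (edgeR adjusted p = 0.0681). Tm7sf2, a sterol reductase, was barely counted, at 1.33 CPM ± 0.563 in deep Mettl3-KO and 1.58 CPM ± 1.39 in deep WT libraries.

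Mevalonate genes gave 1 lower call. Acat2 (chromosome 17, 12943042 to 12960725), the cytosolic thiolase at the head of the pathway, stood between 76.6 and 132 CPM with a median of 109 in deep Mettl3-KO libraries. Deep WT libraries held 121, 162, 134, 152 and 155 CPM. It fell by 0.43 on the log2 scale in deep libraries (SE 0.15, edgeR adjusted p = 0.0279), with -0.39 in all 14 (edgeR adjusted p = 0.248). Without WT 1 h replicate 1, 0 members were called lower in the deep libraries, and Acat2 was also lost without Mettl3-KO 3 h replicate 1. Hmgcs1, HMG-CoA synthase and the most abundant gene of these steps, averaged 174 CPM ± 47.9 (SD, n = 7) in deep Mettl3-KO and 158 CPM ± 29 (SD, n = 5) in deep WT libraries (log2 difference 0.19, edgeR adjusted p = 0.567 in all 14). Fdps, which makes farnesyl diphosphate, averaged 38.0 CPM ± 5.77 in deep Mettl3-KO and 44.8 CPM ± 15.5 in deep WT libraries. The rest overlapped as well, from Idi1, the isopentenyl isomerase, at 3.57 CPM ± 1.14 in deep Mettl3-KO and 1.74 CPM ± 1.22 in deep WT libraries to Pmvk, a mevalonate pathway kinase, at 38.9 CPM ± 8.87 in deep Mettl3-KO and 48.5 CPM ± 13.2 in deep WT libraries. Mvk, mevalonate kinase, averaged 22.3 CPM ± 8.68 in deep Mettl3-KO and 20.9 CPM ± 3.37 in deep WT libraries, and Mvd, the decarboxylase, 43.8 CPM ± 15.2 in deep Mettl3-KO and 47.8 CPM ± 10.1 in deep WT libraries.

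Of the fatty acid genes Acaca alone was called for total RNA. Acaca (chromosome 11, 84129635 to 84401651) encodes acetyl-CoA carboxylase 1, which commits acetyl-CoA to fatty acids. It stood between 31.2 and 82.3 CPM with a median of 41.2 in deep Mettl3-KO libraries, against 24.0, 26.3, 17.9, 24.3 and 33.5 CPM in deep WT libraries. The log2 difference was 0.97 in all libraries (SE 0.25, edgeR adjusted p = 0.013) and 1.03 in the deep ones (SE 0.20, edgeR adjusted p = 0.000638). Its annotated span overlaps Tada2a, and the sources used here do not state whether counting used strand. The abundant fatty acid genes were close between genotypes. Fasn, fatty acid synthase, averaged 266 CPM ± 74.6 (SD, n = 7) in deep Mettl3-KO and 238 CPM ± 47.1 (SD, n = 5) in deep WT libraries. Acly, which makes cytosolic acetyl-CoA from citrate, averaged 220 CPM ± 25.4 in deep Mettl3-KO and 225 CPM ± 22.8 in deep WT libraries, and the elongase Elovl6 205 CPM ± 47.9 in deep Mettl3-KO and 206 CPM ± 31.7 in deep WT libraries. Scd1, another stearoyl-CoA desaturase, averaged 21.6 CPM ± 4.28 in deep Mettl3-KO and 22.4 CPM ± 2.64 in deep WT libraries. Scd2, its relative, averaged 95.4 CPM ± 38.8 in deep Mettl3-KO and 131 CPM ± 19.2 in deep WT libraries (log2 difference -0.52, edgeR adjusted p = 0.0551).

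No regulator was called. Srebf2, the SREBP that acts mainly on sterol genes, averaged 48.9 CPM ± 15.6 (SD, n = 7) in deep Mettl3-KO and 57.6 CPM ± 17.0 (SD, n = 5) in deep WT libraries. Srebf1, its relative that acts more on fatty acid genes, averaged 12.4 CPM ± 5.12 in deep Mettl3-KO and 10.1 CPM ± 5.55 in deep WT libraries. Scap, the SREBP escort, averaged 41.7 CPM ± 8.36 in deep Mettl3-KO and 32.6 CPM ± 3.35 in deep WT libraries. Insig1, the sterol-sensing retention factor, ranged from 16.1 to 67.4 CPM in deep Mettl3-KO and from 19.0 to 73.7 CPM in deep WT libraries. Stard4, a cytosolic sterol carrier, averaged 14.7 CPM ± 4.19 in deep Mettl3-KO and 14.3 CPM ± 1.24 in deep WT libraries.

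**Figure D1:**
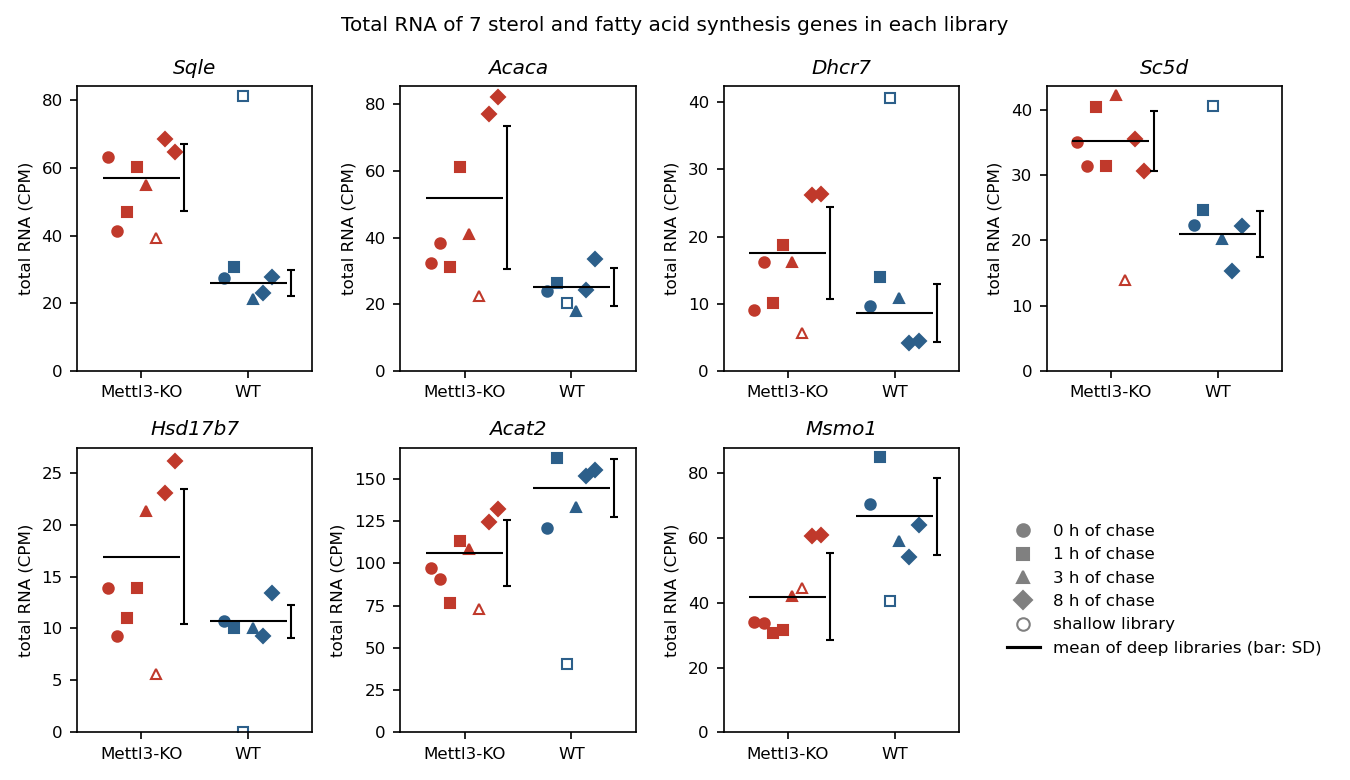
Total RNA (CPM, linear axis from 0) of the 7 members called different between Mettl3-KO (left) and WT (right) in the deep libraries, 1 symbol per library shaped by chase hour; open symbols are the 2 shallow libraries, lines and bars the mean and SD of deep libraries. Sqle and Sc5d are the panels in which the filled Mettl3-KO and WT symbols do not overlap, and in Msmo1 the highest Mettl3-KO symbols, 60.7 and 60.8 CPM, are those of 8 h.

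Over the chase hours, total RNA of 7 members rose in deep Mettl3-KO libraries, and most of the group stood highest there at 8 h. Summed over the 29 genes it stood at 2220 and 2284 CPM in the 2 Mettl3-KO libraries at 8 h and at 1489 to 1748 CPM in the 5 earlier deep Mettl3-KO libraries. Deep WT libraries lay between 1560 and 1871 CPM at all hours. The median log2 ratio of the members to their 0 h mean (CPM + 0.5, deep libraries) was 0.10, 0.19 and 0.58 at 1, 3 and 8 h in Mettl3-KO, with 25 of 29 above 0 at 8 h. In WT the medians were 0.06, -0.20 and -0.06, with 14 of 29 above 0 at 8 h. For 20 of the 29 genes both Mettl3-KO libraries at 8 h lay above all 5 earlier deep ones, and for 0 both lay below, where the shares over all genes were 14% and 13.3%. In WT, where 3 earlier deep libraries were available, 6 of 29 lay above and 4 below, against 13% and 12.5% of all genes. The 2 Mettl3-KO libraries at 8 h were closer to each other than any other replicate pair. Their chi-square per degree of freedom over all genes was 10.2, where 1 is counting noise. It was 57.4 at 0 h and 83.2 at 1 h in Mettl3-KO, and 43.6 at 8 h in WT. Whether these 2 libraries came from separate cultures is not known, and the slope tests count them as 2.

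**Figure D2:**
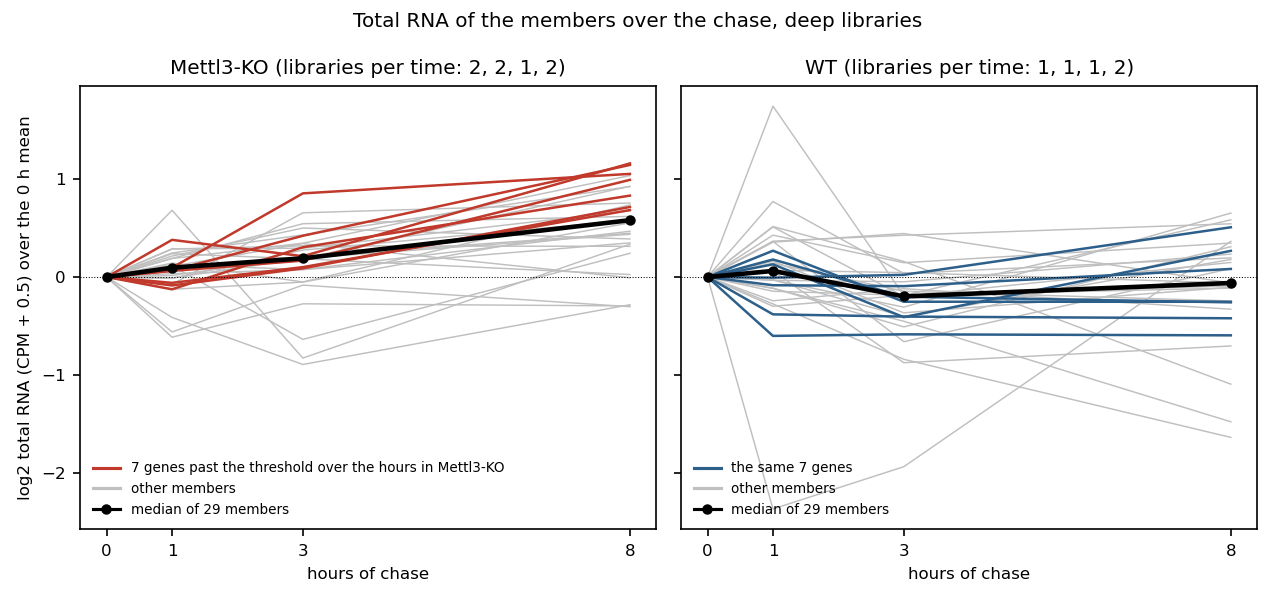
Log2 ratio of total RNA (CPM + 0.5) to the 0 h mean of the same genotype over 0, 1, 3 and 8 h of chase in deep libraries, Mettl3-KO in the left panel and WT in the right; thin lines are the 29 genes and the thick line their median. The median reaches 0.58 at 8 h in Mettl3-KO and stands at -0.06 in WT.

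The test of these slopes depended on the shallow libraries. With all 14 libraries edgeR called 0 of 29 members, and 0% of all genes, rising per hour in Mettl3-KO, in WT or in the difference of the slopes. At an unadjusted edgeR p under 0.05 there were 9 members in Mettl3-KO, 1 in WT and 3 in the difference, in either direction. Over all 14641 genes there were 830 in Mettl3-KO, 517 in WT and 728 in the difference. DESeq2 on the same libraries called 5 members rising in Mettl3-KO (1.48% of genes), 0 in WT (0.0751%) and 3 in the difference (0.604%). In the 12 deep libraries edgeR called 7 members (Scd2, Msmo1, Fdft1, Hmgcs1, Acaca, Hsd17b7, Fasn) rising in Mettl3-KO, against 2.15% of genes, and 0 in WT, against 0%. It called 2 members in the difference, Scd2 and Dhcr7, against 0.24% of genes. The 24 members with a slope above 0 in Mettl3-KO compare with 47% of all genes in all 14 libraries, at a member median of 0.07 per hour on the log2 scale. All 7 calls rested on the 8 h libraries, since 0 were made without either of them, and 2 (Msmo1 and Scd2) without Mettl3-KO 0 h replicate 1 or Mettl3-KO 1 h replicate 1. A fit of 0, 1 and 3 h alone kept the 2 shallow libraries. In it, 12 of the 28 members that could be tested had a slope above 0 in Mettl3-KO, and 0 were called. The median slope was -0.02 per hour for the members and -0.02 over all genes. In the deep libraries, 22 of 29 members stood above their 0 h mean at 3 h in Mettl3-KO, where 1 deep library was available. The 2 calls of a difference fell to 0 without WT 1 h replicate 1, Mettl3-KO 1 h replicate 1, WT 8 h replicate 2 or either Mettl3-KO 8 h library.

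The genes that rose came from every enzymatic stretch of the pathways, and their slopes are given for the deep libraries. Scd2 (chromosome 19, 44293676 to 44306864), a desaturase that makes monounsaturated fatty acids, had the smallest p. Its 7 deep Mettl3-KO libraries held 72.3 and 63.0 CPM at 0 h, 59.5 and 82.2 at 1 h, 90.7 at 3 h, and 149 and 151 at 8 h. Deep WT libraries held 140 CPM at 0 h, 159 at 1 h, 122 at 3 h, and 126 and 109 at 8 h, so that the 8 h values overlapped with WT while earlier Mettl3-KO values lay below. The slope was 0.15 per hour in Mettl3-KO (SE 0.02, edgeR adjusted p = 0.00379), -0.04 in WT, and the difference 0.19 (SE 0.04, edgeR adjusted p = 0.0336). Msmo1 had the same shape, with 34.0, 33.9, 30.6, 31.6 and 42.1 CPM in the deep Mettl3-KO libraries up to 3 h, and 60.7 and 60.8 CPM at 8 h. Its slope was 0.12 in Mettl3-KO (SE 0.03, edgeR adjusted p = 0.0207) and -0.04 in WT, and the difference did not pass (0.16, edgeR adjusted p = 0.0678). Fdft1 (chromosome 14, 63145150 to 63181687), which joins farnesyl units into squalene, held 17.3 to 26.4 CPM in deep Mettl3-KO libraries up to 3 h, and 45.3 and 42.5 CPM at 8 h. Deep WT libraries held 26.7 CPM at 0 h and 17.5 to 17.7 CPM later, with slopes of 0.13 in Mettl3-KO (edgeR adjusted p = 0.0278) and -0.04 in WT. The annotated span of Fdft1 overlaps Ctsb.

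Hmgcs1 (chromosome 13, 119690351 to 119708260), whose promoter held the sterol regulatory form above, was at 134 to 157 CPM in deep Mettl3-KO libraries up to 3 h, and at 233 and 252 CPM at 8 h. Deep WT libraries held 197 CPM at 0 h and 151, 149, 174 and 120 CPM later, with no such rise. Slopes were 0.10 in Mettl3-KO (edgeR adjusted p = 0.0357) and -0.03 in WT. Fasn (chromosome 11, 120805958 to 120825166) held 177 to 259 CPM in deep Mettl3-KO libraries up to 3 h, and 340 and 389 CPM at 8 h. Deep WT libraries of Fasn held 204, 203 and 207 CPM up to 3 h, and 299 and 280 CPM at 8 h, so the 8 h values were the highest in both genotypes. The Fasn slopes were 0.09 in Mettl3-KO (edgeR adjusted p = 0.045) and 0.07 in WT (edgeR adjusted p = 0.428). Acaca held 77.2 and 82.3 CPM at 8 h in Mettl3-KO, against 31.2 to 61.3 CPM in the earlier deep libraries, with a slope of 0.13 (edgeR adjusted p = 0.0406) and of 0.04 in WT. Hsd17b7 held 23.0 and 26.1 CPM at 8 h in Mettl3-KO, against 9.30 to 21.3 CPM earlier, with a slope of 0.14 (edgeR adjusted p = 0.0426) and of 0.02 in WT.

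Dhcr7 differed in slope through both genotypes. In deep Mettl3-KO libraries it held 9.03 and 16.2 CPM at 0 h, 10.1 and 18.7 at 1 h, 16.1 at 3 h, and 26.3 and 26.4 at 8 h. In deep WT libraries it held 9.68 CPM at 0 h, 14.1 at 1 h, 10.9 at 3 h, and 4.13 and 4.42 at 8 h. Neither slope passed alone, at 0.13 in Mettl3-KO (edgeR adjusted p = 0.0898) and -0.19 in WT (edgeR adjusted p = 0.301), and the difference of 0.32 did (SE 0.07, edgeR adjusted p = 0.0447). When 8 h was set against the earlier hours together, in deep libraries, 2 of 29 members were called higher in Mettl3-KO, against 0.597% of all genes. These were Scd2 at 1.02 on the log2 scale (SE 0.19, edgeR adjusted p = 0.0157) and Msmo1 at 0.81 (SE 0.19, edgeR adjusted p = 0.048). The member median was 0.49 in Mettl3-KO, against -0.04 over all genes, and -0.04 in WT, and 0 members were called in WT or in the difference between the genotypes.

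Labelled RNA at the end of the pulse was lower in Mettl3-KO for most members, as it was for most genes. With the TMM-scaled total of the library as its size, 24 of 29 members lay below 0, with a median of -0.41 against -0.35 over all genes. One member, Msmo1, was called lower, where 6.27% of genes were, and 0 higher, where 1.35% were. DESeq2 called 2 members lower in all 14 libraries, where it called 7.8% of genes. In deep libraries Msmo1 and Scd2 were called lower by edgeR, against 8.55% of genes, and 0 members higher, against 1.57%. Scaling by the conversion counts themselves moved the median of all genes by 0.41 at 0 h, and by 0.42 and 0.51 per hour for the slopes in Mettl3-KO and WT. Under that scaling 0 members were called at 0 h. Labelled differences below are therefore relative to the total RNA of the library. Without WT 0 h replicate 1, WT 1 h replicate 1, WT 3 h replicate 1, either Mettl3-KO 0 h library, Mettl3-KO 1 h replicate 1 or Mettl3-KO 8 h replicate 2, 0 members were called in the remaining 13 libraries, and in the deep libraries 0 were called without WT 1 h replicate 1.

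The labelled share, conversion counts per 100 total counts of the same gene, showed which part of these differences lay in the share. Msmo1 had shares of 29.5% (95% Wilson interval 25.9 to 33.4%) and 39.1% (35.1 to 43.2%) in the 2 Mettl3-KO libraries at 0 h, against 54.7% (52.0 to 57.4%) in the WT library. Scd2 had shares of 30.4% (27.9 to 33.1%) and 35.3% (32.4 to 38.3%) in Mettl3-KO, against 49.3% (47.4 to 51.2%) in WT. These intervals cover counting error only. They take each conversion count as 1 read of the total, which the sources used here do not state. In 152 genes, 1 of them a member, a library held more conversion counts than total counts. There conversion counts cannot be a subset of the total, so the intervals may not hold. Labelled Msmo1 fell by 1.59 on the log2 scale (SE 0.50, edgeR adjusted p = 0.0293) in all libraries, and labelled Scd2 by 1.59 in the deep ones (SE 0.43, edgeR adjusted p = 0.00958). When the total count of the gene itself served as offset, so that only the share was compared, the differences were -0.35 for Msmo1 and -0.40 for Scd2, and 0 members were called. That test had few calls for any gene, 0 higher and 1 lower of 12678 in all libraries and 0 higher and 9 lower of 12669 in the deep ones, with a median over all genes of -0.41 in all libraries and -0.44 in the deep ones. Total RNA at 0 h was 34.0 and 33.9 CPM in Mettl3-KO and 70.6 CPM in WT for Msmo1, and 72.3 and 63.0 CPM in Mettl3-KO and 140 CPM in WT for Scd2.

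Low shares were the rule for the group and for the transcriptome. Over 27 members (Idi1 and Tm7sf2, each at 0 counts in a deep WT library, were left out), both Mettl3-KO libraries lay below the WT library at 0 h for 26 and above it for 0, against 88.7% and 3.28% of all genes. Sc5d, at 34.4 and 43.6% in Mettl3-KO against 41.7% in WT, was the exception. The whole libraries held 26.1 and 26.6% in Mettl3-KO and 39.4% in WT, and the summed members 28.0 and 28.6% in Mettl3-KO and 44.2% in WT. Sqle, whose total RNA was higher in Mettl3-KO, had shares of 27.2 and 22.9% there against 47.3% in WT. Stard4 had the widest gap, 28.0 and 30.6% in Mettl3-KO against 71.0% in WT. At 8 h the summed members held 2.39 and 2.34% in Mettl3-KO and 2.88 and 1.91% in WT. By then both Mettl3-KO libraries lay above both WT libraries for 7 of the 27 members, against 28.6% of all genes, and below for 6, against 12.7%. Those above were Mvk, Pmvk, Sqle, Lss, Hsd17b7, Acly and Scd2. Those below were Mvd, Cyp51, Sc5d, Dhcr7, Srebf2 and Stard4.

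**Figure D3:**
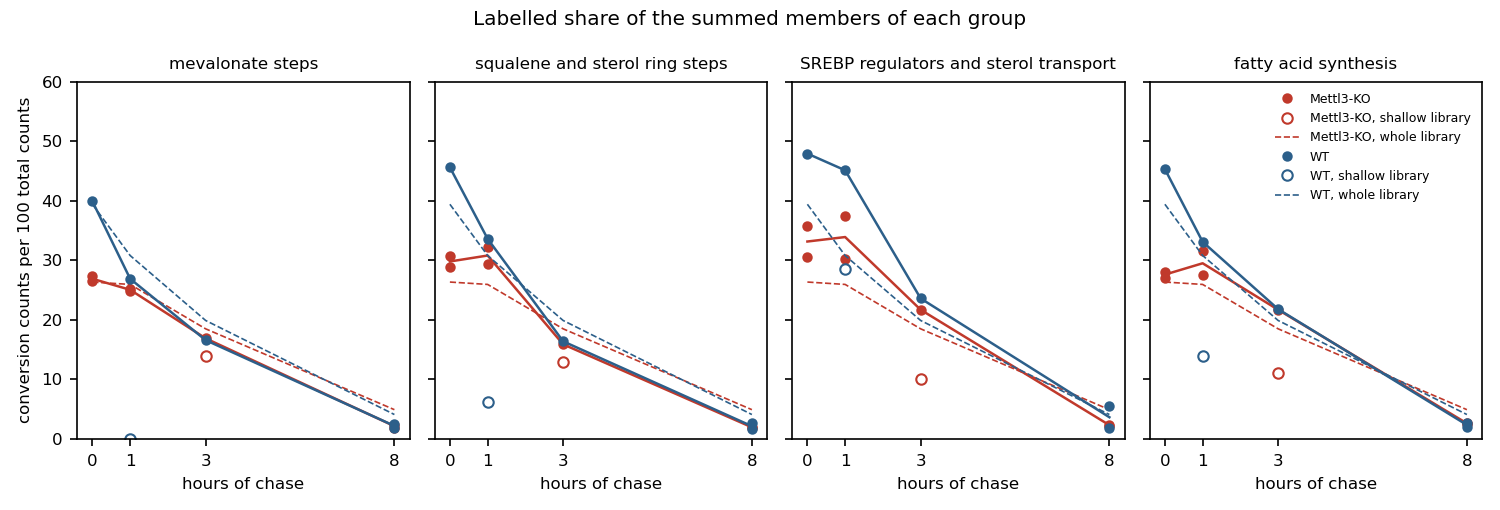
Conversion counts per 100 total counts, summed over the members of each of the 4 role groups (1 panel each), over 0, 1, 3 and 8 h of chase; filled points are deep libraries, open points shallow ones, solid lines the means of deep libraries and dashed lines those of whole libraries, with Mettl3-KO in red and WT in blue. At 0 h the Mettl3-KO points lie below WT in every panel (28.9 and 30.7% against 45.6% for the ring steps), and by 8 h all deep points are under 6%.

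During the chase, labelled RNA of the members was lost in both genotypes at rates close to those of all genes. In Mettl3-KO 27 of 29 were called falling, against 88.2% of all genes, and in WT 29 of 29, against 91.4%. Mvk (edgeR adjusted p = 0.052) and Tm7sf2 (edgeR adjusted p = 0.219) did not pass in Mettl3-KO. The median slope was -0.47 per hour on the log2 scale in Mettl3-KO and -0.59 in WT, which are half-lives of 2.11 h in Mettl3-KO and 1.70 h in WT. Over all genes the half-lives of the median slope were 2.12 h in Mettl3-KO and 1.80 h in WT. In the deep libraries alone they were 2.09 h in Mettl3-KO and 1.69 h in WT for the members. For all genes they were 2.11 h in Mettl3-KO and 1.78 h in WT there. Half-lives are the hours for fitted label to fall by 50% relative to total RNA, with no correction for cell division. The fit takes 1 rate over all hours, while shares in Mettl3-KO overlapped at 0 and 1 h. Summed members held 28.0 and 28.6% at 0 h, 27.6 and 30.6% at 1 h and 19.3% at 3 h in deep Mettl3-KO libraries. Deep WT libraries held 44.2, 32.9 and 19.6% at these hours. Whole Mettl3-KO libraries held 26.1 and 26.6% at 0 h and 25.2 and 26.7% at 1 h. The label differences at 0 h above come from the same fit. Role groups were alike in Mettl3-KO, at 2.12 h for the mevalonate steps, 2.39 h for the ring steps, 2.03 h for the regulators and 2.33 h for fatty acid synthesis. In WT the mevalonate steps were at 1.70 h, the ring steps at 1.55 h, the regulators at 1.72 h and fatty acid synthesis at 1.99 h. With 0, 1 and 3 h alone, 0 members were called in Mettl3-KO and 1 in WT, where 236 of 12640 genes were called falling in Mettl3-KO and 787 in WT.

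No difference in loss between the genotypes was called for a member in all 14 libraries by edgeR. It called 2.4% of genes slower in Mettl3-KO and 0.205% faster. An unadjusted edgeR p under 0.05 was found for 6 of 29 members, against 2369 of 12678 genes. DESeq2 gave an adjusted p to 26 of the 29 and called 0 of them, where it called 6.14% of genes slower and 0.443% faster. Of the 29, 25 lay on the side of slower loss in Mettl3-KO (68.8% of all genes did), with a median of 0.13 per hour against 0.10. With the own total count of each gene as offset, 18 of 29 lay on that side in all libraries, with a median of 0.06 against 0.09 over all genes, and 20 of 29 in the deep ones, also at 0.06 against 0.09. In deep libraries 1 member was called, Scd2, against 5.05% of genes slower and 0.3% faster. Scd2 had a half-life of 2.11 h in Mettl3-KO and 1.24 h in WT, and the slope difference was 0.33 (SE 0.10, edgeR adjusted p = 0.0461) in deep libraries. In all libraries it was 0.33 (SE 0.12, edgeR adjusted p = 0.104). With the own total count as offset, the Scd2 difference was 0.14 (edgeR adjusted p = 0.383 in deep libraries). Total Scd2 rose over the same hours in Mettl3-KO. In the deep libraries the call was 0 members without either Mettl3-KO 0 h library, WT 1 h replicate 1, Mettl3-KO 1 h replicate 1, WT 8 h replicate 1 or either Mettl3-KO 8 h library, 2 without WT 0 h replicate 1 and 3 without WT 3 h replicate 1.

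Within the ring steps the fitted half-lives were longer in Mettl3-KO for most enzymes, though no gene passed alone. Lss was at 1.94 h in Mettl3-KO and 1.04 h in WT, and Sqle at 1.94 h in Mettl3-KO and 1.15 h in WT. Hsd17b7 was at 2.66 h in Mettl3-KO and 1.34 h in WT, and Nsdhl at 3.26 h in Mettl3-KO and 1.5 h in WT. Dhcr7 was at 2.89 h in Mettl3-KO and 1.61 h in WT, and Fdft1 at 2.39 h in Mettl3-KO and 1.5 h in WT. Lss had 0 conversion counts in both WT libraries at 8 h. The median slope difference of the 11 genes was 0.25 per hour, with Lss at 0.44 (SE 0.18, edgeR adjusted p = 0.156) and Nsdhl at 0.36 (SE 0.14, edgeR adjusted p = 0.117). Msmo1 was at 2.02 h in Mettl3-KO and 1.55 h in WT, and Cyp51 at 2.51 h in Mettl3-KO and 2.38 h in WT. Ebp, at 1.91 h in Mettl3-KO and 2.00 h in WT, and Sc5d, at 1.91 h in Mettl3-KO and 2.69 h in WT, lay on the other side. Tm7sf2 had 5.59 h in Mettl3-KO and 2.67 h in WT, and in places more conversion counts than total counts.

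Among mevalonate genes Mvk had the largest slope difference of the 29, 0.60 (SE 0.23, edgeR adjusted p = 0.12), with 3.98 h in Mettl3-KO and 1.17 h in WT. It started from a low share, 5.24 and 9.41% at 0 h in Mettl3-KO against 26.5% in WT, and it had 0 conversion counts in both WT libraries at 8 h. Pmvk was at 3.41 h in Mettl3-KO and 1.70 h in WT, and Acat2 at 3.35 h in Mettl3-KO and 2.31 h in WT. Hmgcs1 was at 2.02 h in Mettl3-KO and 1.77 h in WT, Fdps at 2.12 h in Mettl3-KO and 1.66 h in WT, and Idi1 at 1.89 h in Mettl3-KO and 1.6 h in WT. Mvd was the mevalonate gene on the other side, at 1.82 h in Mettl3-KO and 2.83 h in WT.

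Among regulators and fatty acid genes Srebf1 had the shortest fitted half-life of the 29 in Mettl3-KO, 1.57 h, against 1.29 h in WT. Srebf2 was at 2.08 h in Mettl3-KO and 1.72 h in WT, Insig1 at 1.83 h in Mettl3-KO and 1.5 h in WT, and Scap at 3.31 h in Mettl3-KO and 2.32 h in WT. Stard4 went the other way, at 2.03 h in Mettl3-KO and 3.68 h in WT, with shares of 19.8 and 7.50% in the WT libraries at 8 h. Fasn was at 3.13 h in Mettl3-KO and 2.55 h in WT, Acaca at 3.01 h in Mettl3-KO and 2.21 h in WT, and Acly at 2.61 h in Mettl3-KO and 2.02 h in WT. Elovl6 was at 1.95 h in Mettl3-KO and 1.62 h in WT, and Scd1 at 2.04 h in Mettl3-KO and 1.96 h in WT.

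**Figure D4:**
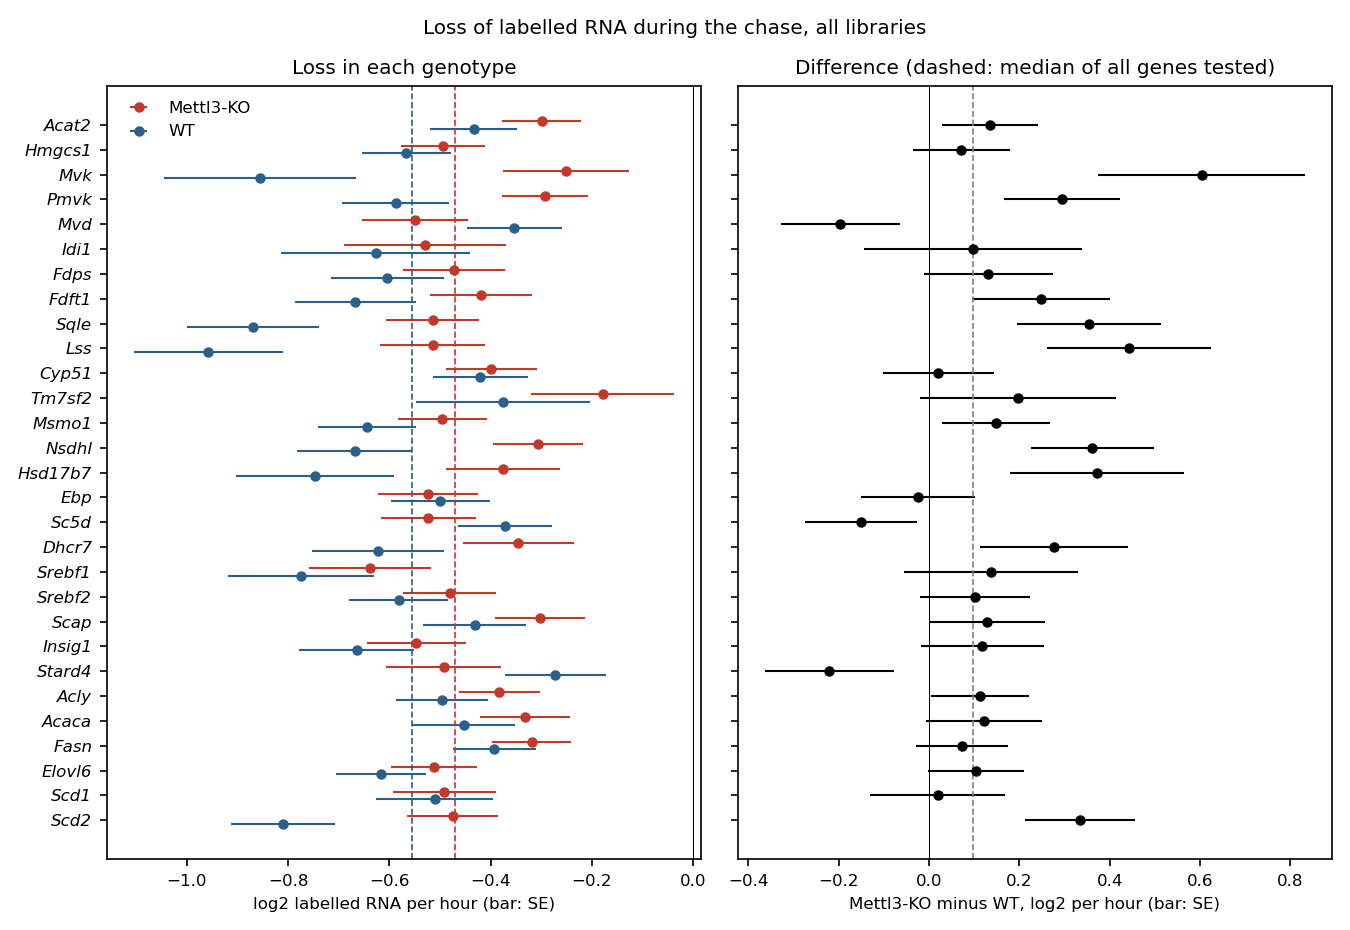
Slope of labelled RNA over the chase (log2 per hour, point and SE, all libraries) of the 29 genes in Mettl3-KO (red) and WT (blue) in the left panel, and the Mettl3-KO minus WT difference in the right; dashed lines are medians of all genes tested. Most differences lie to the right of 0, with Mvk at 0.60, and Stard4, Mvd, Sc5d and Ebp to the left.

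The authors' deposited table of half-lives lists 24 of the 29 genes (not Mvk, Tm7sf2, Nsdhl, Dhcr7 or Insig1), with no unit in its header. In the authors' deposited table, all listed genes have a correlation of -0.8 or lower. The authors' deposited table gives a longer half-life in Mettl3-KO than in WT for 21 of the 24, against 83.4% of all 6984 genes listed. Its member medians are 3.01 in Mettl3-KO and 1.71 in WT, against 2.52 in Mettl3-KO and 1.69 in WT over all genes of the authors' deposited table. Fasn stands at 6.51 in Mettl3-KO and 2.24 in WT in the authors' deposited table, and Scd2 at 3.60 in Mettl3-KO and 1.32 in WT. The members with a shorter half-life in Mettl3-KO in the authors' deposited table are Stard4 (1.87 in Mettl3-KO, 2.98 in WT), Mvd (2.42 in Mettl3-KO, 2.79 in WT) and Cyp51 (2.67 in Mettl3-KO, 2.76 in WT). In the fit above, Stard4 and Mvd were on that side and Cyp51 was not. Ebp and Sc5d, which had shorter fitted half-lives in Mettl3-KO above, are longer there in the authors' deposited table, by 1.74 for Ebp and 0.77 for Sc5d.

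Several lipid genes outside the 29 differed by more than 1 on the log2 scale. Among 23 tested genes of desaturation, elongation and other lipid synthesis, 4 were called higher in Mettl3-KO and 1 lower in total RNA (all 14 libraries), with a median of -0.09, where 12.1% of all genes were higher and 9.99% lower. In the deep libraries 7 were called higher and 3 lower, where 21.9% and 19.3% of all genes were, and the same backgrounds apply to the lists that follow. Fads2, the first desaturase of polyunsaturated fatty acids, rose by 2.47 on the log2 scale (SE 0.32, edgeR adjusted p = 0.000156), averaging 27.7 CPM in deep Mettl3-KO and 5.17 CPM in deep WT libraries. Slc25a1, the mitochondrial citrate carrier, averaged 67.3 CPM in deep Mettl3-KO and 26.1 CPM in deep WT libraries (log2 1.25, SE 0.27, edgeR adjusted p = 0.00514). Tmem97, an endoplasmic reticulum membrane protein, averaged 71.2 CPM in deep Mettl3-KO and 38.6 CPM in deep WT libraries (log2 1.01, SE 0.23, edgeR adjusted p = 0.00594). Mid1ip1, an activator of acetyl-CoA carboxylase, fell by 1.82 (SE 0.30, edgeR adjusted p = 0.000831), to 9.36 CPM in deep Mettl3-KO against 29.2 CPM in deep WT libraries. Labelled Mid1ip1 and Tecr, a reductase of fatty acid elongation, were lower in Mettl3-KO at 0 h (log2 -2.22 and -1.77).

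In the isoprenoid and post-squalene branches, 0 of 11 genes were called higher and 1 lower, Lbr, a lamin B receptor with sterol reductase activity (log2 -0.63, SE 0.18, edgeR adjusted p = 0.0194). In the deep libraries 1 was called higher and 3 lower. In all 14 libraries this branch held the only genes of the lipid lists with a called difference in loss. These were 2 of its 11 genes, where 2.4% of all genes were called slower in Mettl3-KO. Icmt, which methylates prenylated proteins, had a half-life of 2.64 h in Mettl3-KO and 0.824 h in WT (slope difference 0.83, SE 0.21, edgeR adjusted p = 0.0156). Dhdds, which makes dolichol precursors, had 5.51 h in Mettl3-KO and 1.31 h in WT (slope difference 0.58, SE 0.16, edgeR adjusted p = 0.0274).

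Of 16 tested sterol export, transport and storage genes, 1 was called higher and 4 lower in all 14 libraries, with a median of -0.04, and 1 higher and 5 lower in the deep ones. Abca1, the cholesterol exporter, fell by 2.87 on the log2 scale (SE 0.29, edgeR adjusted p = 2.26e-05), to 4.72 CPM in deep Mettl3-KO against 34.9 CPM in deep WT libraries. Osbpl9, an oxysterol-binding protein relative, and Tspo, a mitochondrial membrane protein that binds cholesterol, fell by 1.01 (SE 0.24) and 1.11 (SE 0.29). Lipa, the lysosomal acid lipase, averaged 6.2 CPM in deep Mettl3-KO and 1.32 CPM in deep WT libraries (log2 2.39, SE 0.37, edgeR adjusted p = 0.000466). At 0 h labelled Abca1 (log2 -3.24) and labelled Nr1h2, the oxysterol receptor LXR beta (log2 -1.74), were lower.

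Of 16 tested fatty acid oxidation genes, 1 was called higher and 3 lower in all 14 libraries, with a median of -0.13, and 3 higher and 5 lower in the deep ones. Cpt1a, the acyltransferase that admits fatty acids to mitochondria, fell by 1.71 on the log2 scale (SE 0.41, edgeR adjusted p = 0.00862), and Decr1, a reductase for unsaturated fatty acids, fell by 1.00 (SE 0.28). Slc25a20, the mitochondrial acylcarnitine carrier, rose by 0.69 (SE 0.20, edgeR adjusted p = 0.0235). Over the chase 0 oxidation genes, and 0% of all genes, were called in Mettl3-KO in all 14 libraries. In the deep ones 2 were called falling, Cpt1a and Cpt2, where 2.23% of all genes were. With all 14 libraries and with the deep ones, 10 of the 16 had slopes above 0. Cpt1a stood in deep Mettl3-KO libraries at 32.3, 36.2, 34.4, 38.1 and 27.7 CPM up to 3 h and 15 and 14.2 CPM at 8 h. Deep WT libraries held 85.2, 82.2 and 94.8 CPM of Cpt1a up to 3 h, and 109 and 125 CPM at 8 h. The deep slope of Cpt1a was -0.17 in Mettl3-KO (SE 0.03, edgeR adjusted p = 0.00324), and -0.23 in the difference (SE 0.04, edgeR adjusted p = 0.0167). Cpt2, the partner acyltransferase of the inner membrane, had a deep slope of -0.15 in Mettl3-KO (SE 0.04, edgeR adjusted p = 0.0408), and -0.17 in the difference (edgeR adjusted p = 0.144).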

How the data were processed

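Total RNA and labelled RNA were measured in 14 libraries of 8 groups, assigned by sample title. The authors deposited whole-number counts per gene symbol, 1 table of total counts and 1 of T>C conversion counts. Per the submitters' processing notes, Trim Galore 0.4.0, Subread 1.5.0 with featureCounts, edgeR 3.32.1 and the build mm10 were used. Not given in the sources used here are the aligner, the conversion caller, strand use, and whether 1 conversion count stands for 1 read or 1 base. A table of log2 values that the authors deposited was not used. The authors also deposited other values, half-lives and correlations, whose unit is not in the header. Per the labels' protocols the libraries are 3′ end libraries of polyA RNA, so no gene length was applied. The entry without a name (0.00707 to 0.0312% of counts) was left out.

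Tests used edgeR 4.0.16 (robust quasi-likelihood, TMM) in R 4.3.3 over all genes. Total RNA needed at least 10 counts in at least 6 libraries, and was fitted with chase time as a factor plus genotype, or with genotype, hours and their interaction. Labelled RNA needed 3 or more libraries with 10 or more conversion counts, with the TMM-scaled total as library size and genotype, hours and their interaction. SE is the log2 effect over the square root of F. All libraries shared each fit, and lone libraries (WT 0 h and 3 h) were assumed to vary like the others. DESeq2 1.42.0, other scalings, filters and left-out libraries were alternatives, and scripts were tested on simulated data. The members, lists and the rule for named genes were chosen with earlier results of these data known. The rule names every member past adjusted p under 0.05, the 2 most abundant per role, and up to 3 genes per direction of each other list. One gene that this rule names in the fatty acid oxidation list is not reported here. RefSeq (GRCm38.p6, the mm10 assembly) gave positions and promoters. Depth sets the precision, 1 count being 0.0378 to 0.152 CPM in deep libraries, 2.80 CPM in Mettl3-KO 3 h replicate 2 and 20.3 CPM in WT 1 h replicate 2.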

Additional observations from a re-analysis of the deposited data

Results flagged for a closer look

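Of 58 combinations of member and genotype, 13 had 1 library far from the rest of its genotype in total RNA, all of them in the 2 shallow libraries. Chance gives about 1 in 20 groups. In Mettl3-KO 3 h replicate 2, Fdps stood at 14 CPM (5 counts) against 32.5 to 48.0 CPM in the other Mettl3-KO libraries. Sc5d stood there at 14 CPM (5 counts) against 30.6 to 42.2 CPM, and Elovl6, on 227 counts, at 635 CPM against 136 to 283 CPM.

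In WT 1 h replicate 2, where 1 count is 20.3 CPM, Acat2 stood at 40.6 CPM against 121 to 162 CPM in the other WT libraries. Sqle stood there at 81.2 CPM (4 counts) against 21.1 to 30.7 CPM, Sc5d at 40.6 CPM against 15.4 to 24.7 CPM, Dhcr7 at 40.6 CPM against 4.13 to 14 CPM, and Scap at 60.9 CPM against 28.9 to 36.6 CPM. Fdft1, Hsd17b7, Ebp, Stard4 and Scd1 were at 0 counts there, where 3 counts, 60.9 CPM, is the level a count of 0 allows. The other WT libraries held 17.5 to 26.7, 9.32 to 13.4, 60.1 to 76.6, 12.2 to 15.2 and 19.0 to 25.7 CPM of these 5 genes.

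In deep libraries the genotypes differed in the slope of total RNA for Dhcr7 (0.32 per hour) and Scd2 (0.19 per hour), and in the slope of labelled RNA for Scd2 (0.33 per hour).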

How the results depend on the processing

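Counts of called members in total RNA and its slopes moved with the 2 shallow libraries, and counts of falling labelled RNA with the hours used and the label scaling. Without them, and in the same way with the replicate number as a block and those libraries left out, 2 higher calls of total RNA became 5 (6 with the block) and 0 lower calls became 2 (2 with the block). Rising genes over the hours in Mettl3-KO went to 7 (7 with the block), slope differences to 2 (2 with the block), lower labelled RNA at 0 h to 2 (2 with the block), and slower loss to 1 without the block. DESeq2 gave 5 rising genes in Mettl3-KO, 3 slope differences, 2 lower genes of total RNA and 2 of labelled RNA. One gene was lower in total RNA under the stricter filter (30 counts in 7 libraries), under RLE size factors and with hours as a number, and 1 was higher with no filter. For labelled RNA at 0 h, 0 were lower under TMM of the conversion counts or with the own total as offset, also without the shallow libraries, and 2 with 0, 1 and 3 h alone. Loss in Mettl3-KO went to 0 calls with 0, 1 and 3 h alone and to 0 under TMM of the conversion counts, and loss in WT to 1 and 2. Setting 8 h against earlier hours gave 2 rising genes. The causes were not tested, except that these settings use fewer libraries, hours or another scale.

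With each library left out in turn, total RNA had 1 to 4 higher and 0 to 2 lower calls (3 to 8 and 0 to 3 among deep libraries). Rising genes in Mettl3-KO ranged from 0 to 2 (0 to 8), slope differences from 0 to 0 (0 to 3), negative ones from 0 to 0 (0 to 1, Tm7sf2), lower label at 0 h from 0 to 2 (0 to 3) and slower loss from 0 to 1 (0 to 3).

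Under TMM of the conversion counts, 13 of 29 members had labelled slopes above 0 in Mettl3-KO and 12 of 29 in WT. Among slopes called falling before, the sign changed in Mettl3-KO for Acaca (0.10), Acat2 (0.13), Acly (0.0473), Cyp51 (0.0219), Dhcr7 (0.0805), Fasn (0.11), Fdft1 (0.0051), Hsd17b7 (0.0494), Nsdhl (0.12), Pmvk (0.13) and Scap (0.12). In WT they did for Acaca (0.055), Acat2 (0.0771), Acly (0.0177), Cyp51 (0.094), Ebp (0.0105), Fasn (0.12), Mvd (0.16), Sc5d (0.14), Scap (0.087), Scd1 (0.0013), Stard4 (0.24) and Tm7sf2 (0.13). That scaling sets the bulk of genes to 0. With 0, 1 and 3 h alone, shallow libraries included, 12 of 28 members had a total RNA slope above 0 in Mettl3-KO. Among total RNA slopes in Mettl3-KO called in the deep libraries, those of Acaca (-0.0602), Fasn (-0.0406) and Fdft1 (-0.12) turned in this fit. Deep Mettl3-KO means at 0 and 3 h (1 library at 3 h) were 35.4 and 41.2 CPM for Acaca. They were 227 and 243 CPM for Fasn, and 21.8 and 24.6 CPM for Fdft1. Labelled slopes called before in Mettl3-KO turned for Dhcr7 (0.0387) and Scd2 (0.0125).

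Replicate numbers were not taken to pair libraries. Deviations of same-numbered libraries from their group means correlated above 0.1 in 2 of 15 pairs of groups (-0.0774 to 0.274). The highest value was between Mettl3-KO 3 h and WT 1 h, which each hold a shallow library. The check therefore cannot decide whether replicates were paired. The replicate block over all libraries gave 2 higher and 0 lower members in total RNA, 0 rising genes, 1 lower at 0 h, 27 and 28 falling in Mettl3-KO and WT, and 0 differences in loss. Depth limits the shallow libraries, where a member at 0 counts may stand as high as 60.9 CPM.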
